A study of Mus musculus with 16 samples.

Results

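Glycerolipid acyltransferases attach fatty acyl groups to a glycerol backbone and so build the di- and triacylglycerols that liver stores or secretes. The set followed here across the liver libraries holds 8 genes: Gpam, Agpat2, Agpat3, Mogat1, Mogat2, Dgat1, Dgat2 and Pnpla3. They were taken by symbol, after the versioned Ensembl identifiers of the deposited tables had been matched to names. All 8 members were among the 78317 genes listed, and 7 of them were among the 14781 genes with enough counts to be tested. Pnpla3 was the member left out.

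The study sequenced poly(A) RNA from powdered whole liver of wild-type C57BL/6J mice, an inbred laboratory strain, and its purpose was to compare a high fat diet with a normal diet in both sexes. There were 16 libraries in 4 groups of 4, namely females and males on a normal diet (LabDiet 5053, with fat as 4.5% of calories) and females and males on a high fat diet (Research Diets D12492, with fat as 60% of calories). The mice were 6 weeks old on arrival and were fed the diets for 10 weeks. The 2 diets have different makers and may differ in other nutrients too, and the hour of tissue collection and the feeding state were not given in the sources used here. The labels number the samples of a group as replicates and give no animal identifiers, so the p-values measure the spread between these samples.

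In the glycerol phosphate route, a first acyl group is added to glycerol-3-phosphate (Gpam), a second to lysophosphatidate (Agpat2 and Agpat3), the phosphate is removed by lipins, and the last acyl group is added to diacylglycerol (Dgat1 and Dgat2). A shorter route starts from monoacylglycerol (Mogat1 and Mogat2) and joins at diacylglycerol; it is best known from the absorbing cells of the intestine. Pnpla3 encodes a lipid droplet protein, a close relative of the triglyceride lipase encoded by Pnpla2.

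Library totals ranged from 22228115 to 41420589 expected counts. Male high fat libraries 2 and 3 were far more alike than any other pair within a group: a chi-square statistic per gene of 4.07 separated them, against 20.9 to 308 for the other pairs. That is above counting noise, but it does not show that they came from separate animals, and the labels do not say. They were kept as 2 samples; counted as 1, males on the high fat diet have n = 3. Where leaving out both ended a named gene's diet call in males or moved it by more than 1.5 times in fold, and for Agpat2 and Mogat1 in any case, that value is given beside the result. Both lay above male high fat libraries 1 and 4 in 6 of the 7 tested members (all but Mogat2), a pattern that 27.2% of all tested genes showed. Hepatocyte markers were abundant in every library (summed TPM of 5 markers from 46184.8 to 86588.8).

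Per transcript length, the members spanned a wide range of levels, and Dgat2 led in all 16 libraries. Mean TPM (a share of transcripts, so comparable between genes) of Dgat2 was 279.2 ± 22.2 in females on the normal diet, 284.1 ± 34.9 in females on the high fat diet, 198.0 ± 16.8 in males on the normal diet and 207.7 ± 40.3 in males on the high fat diet (SD, n = 4 each). Agpat2 came next, with group means from 84.0 ± 4.65 to 141.0 ± 15.9 TPM. Agpat3 followed with means from 48.0 ± 3.21 to 65.7 ± 5.89 TPM, then Gpam from 32.7 ± 3.64 to 34.9 ± 8.39 TPM and Dgat1 from 7.06 ± 0.841 to 7.91 ± 1.1 TPM. The monoacylglycerol acyltransferases lay far lower: Mogat1 means ran from 0.610 ± 0.384 to 4.97 ± 1.94 TPM, and Mogat2 means from 0.155 ± 0.192 to 0.220 ± 0.0990 TPM. Pnpla3 means were between 0.0200 ± 0.0400 and 0.190 ± 0.101 TPM. Within a group, neighbours in this order overlapped for Mogat2 and Pnpla3 in 3 groups (not in males on the high fat diet), for Mogat1 and Mogat2 in males on the normal diet, and for Dgat1 and Mogat1 in males on the high fat diet. All other neighbours were separate in every group.

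**Figure D1:**
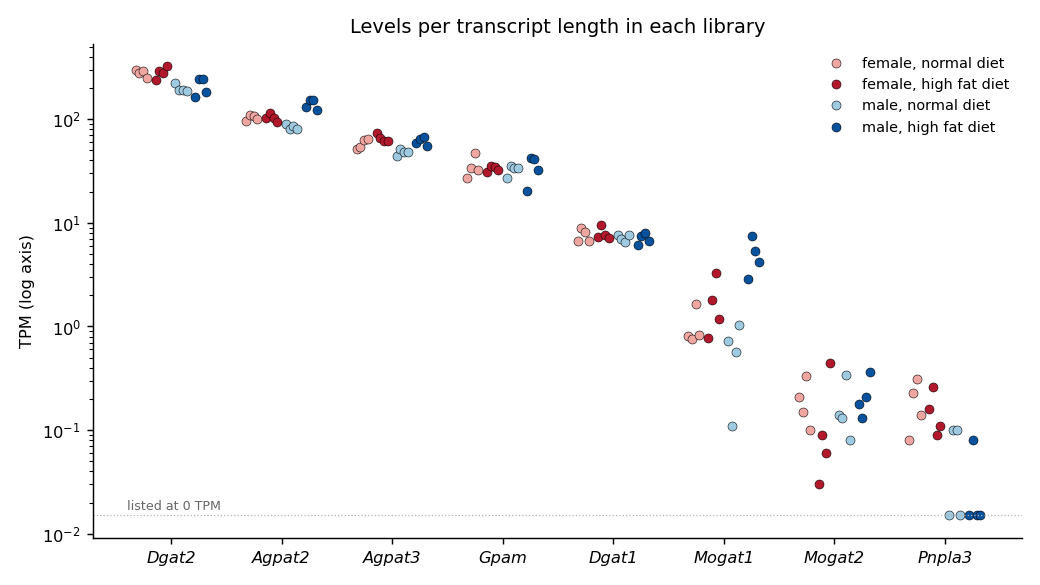
Level of each member in each of the 16 libraries, in TPM on a log axis; each point is 1 library, coloured by group, and points on the dotted line are listed at 0 TPM. Dgat2 stood highest in every library, and Mogat1 showed the widest range among the members above 1 TPM on average, from 0.11 to 7.47 TPM.

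Agpat2 and Mogat1 rose with the high fat diet in males, and no tested member was called in females. The proximal promoters of these 2 genes are shown because they are the members that moved. The sequences are RefSeq's, build GRCm38.p6, 250 bases before to 50 after the annotated start, written 5′ to 3′ on the gene's strand, and capitals mark matches to 1 of 5 short motifs sought on both strands (the nuclear receptor half-site AGGTCA, the E-box CACGTG, the CCAAT box, the GC box GGGCGG and the TATA box TATAAA).
Agpat2, chr2:26604368-26604667, minus strand: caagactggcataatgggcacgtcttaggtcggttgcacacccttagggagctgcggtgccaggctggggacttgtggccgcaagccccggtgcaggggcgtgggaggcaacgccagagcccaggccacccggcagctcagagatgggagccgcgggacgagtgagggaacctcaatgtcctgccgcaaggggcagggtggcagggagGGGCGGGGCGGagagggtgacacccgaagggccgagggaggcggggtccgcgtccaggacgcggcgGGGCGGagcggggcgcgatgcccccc
Mogat1, chr1:78510810-78511109, plus strand: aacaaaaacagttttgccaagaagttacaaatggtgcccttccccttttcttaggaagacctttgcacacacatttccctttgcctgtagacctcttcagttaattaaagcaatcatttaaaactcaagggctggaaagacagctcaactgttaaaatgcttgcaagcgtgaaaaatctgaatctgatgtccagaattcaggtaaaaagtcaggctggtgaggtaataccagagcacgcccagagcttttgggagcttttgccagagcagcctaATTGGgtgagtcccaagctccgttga
The Agpat2 window held 3 matches to the GC box GGGCGG, the first 2 of them overlapping, and none to the other motifs. Its GC content was 72.0% with 26 CpG dinucleotides, against medians of 52.7% and 7 over the 32851 promoters in the table. The Mogat1 window had a GC content of 43.7% with 3 CpG dinucleotides, and its 1 match was a CCAAT box on the other strand. Of all promoters of this length, 35.7% held the GC box, 37.4% the CCAAT box, 16.3% the half-site, 13.6% the TATA box and 7.15% the E-box. A match describes these letters only. The table had promoters for 5 of the 8 members.

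Agpat2 (ENSMUSG00000026922.14), which makes phosphatidate from lysophosphatidate, was the member with the clearest change. Values per library are CPM, in which a count is divided by the library size after TMM scaling, in the order of replicates 1 to 4. In males on the normal diet Agpat2 stood at 102.6, 82.0, 88.4 and 85.8 CPM, and in males on the high fat diet at 133.7, 157.3, 158.3 and 121.5 CPM. Every male high fat library lay above every male normal diet library. Agpat2 rose 1.59-fold in males (log2 fold change 0.67 ± 0.11 SE, adjusted p = 0.000955, edgeR quasi-likelihood test with Benjamini-Hochberg adjustment over all tested genes). In males, 2 of the 7 tested members were called and both were higher, where 11.4% of all tested genes were called and 6.03% were called higher; groups without overlap were seen for 18.5% of genes. Without male high fat libraries 2 and 3, the Agpat2 rise was 0.51 ± 0.12 SE on the log2 scale (adjusted p = 0.0193, edgeR), and with the 2 averaged as 1 sample Agpat2 rose by 0.62 ± 0.12 SE (adjusted p = 0.00448, edgeR).

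In females Agpat2 did not pass the test, with lower values on the high fat diet. The normal diet libraries stood at 107.8, 123.3, 103.7 and 105.6 CPM and the high fat libraries at 92.7, 101.3, 97.1 and 81.0 CPM. The female groups did not overlap, with all high fat libraries lower, which 18.3% of tested genes showed in one direction or the other. The log2 fold change was -0.24 ± 0.11 SE (unadjusted p = 0.0419 and adjusted p = 0.163 by the edgeR quasi-likelihood test). On TPM the female means were 103.7 ± 6.08 and 103.5 ± 8.11 (SD, n = 4 each), and TPM moved the median female diet change of all tested genes up by 0.15 on the log2 scale. The diet change in females minus that in males was -0.91 ± 0.16 SE (adjusted p = 0.00818, edgeR interaction term). Agpat2 was the 1 member of 7 called in this test, where 0.677% of all tested genes were called. Over 24 alternative settings this difference ran from -0.98 to -0.74 with adjusted p from 1.85e-05 to 0.0354.

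On the high fat diet Agpat2 was 1.53-fold lower in females than in males (log2 fold change -0.62 ± 0.11 SE, adjusted p = 0.00113, edgeR), and the groups did not overlap, as for 22.7% of tested genes. On the normal diet it was 0.30 ± 0.11 SE higher in females on the log2 scale, with all female libraries above all male ones, and the adjusted p of 0.0774 missed the threshold of 0.05 (edgeR). That difference was called with DESeq2 (adjusted p = 0.0484), when only the 2 groups were fitted, on TPM, and without male normal diet library 1 (adjusted p = 0.0372, edgeR).

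Mogat1 (ENSMUSG00000012187.14), which adds an acyl group to monoacylglycerol, had the largest fold change among the tested members, from a low level. Males on the normal diet had 0.618, 0.0856, 0.432 and 0.812 CPM, from 3 to 30 counts per library. Males on the high fat diet had 2.16, 5.60, 4.02 and 3.05 CPM, from 58 to 165 counts. All male high fat libraries were higher than all male normal diet libraries. The rise was 7.59-fold (log2 fold change 2.92 ± 0.52 SE, adjusted p = 0.00163, edgeR), and it was 2.41 ± 0.59 SE on the log2 scale without male high fat libraries 2 and 3 (adjusted p = 0.0196, edgeR). With the 2 averaged as 1 sample, Mogat1 rose by 2.77 ± 0.54 SE (adjusted p = 0.0052, edgeR). On log2(TPM + 1), a scale that understates changes of low genes, the Mogat1 rise was 1.87 and passed the test (limma).

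In females Mogat1 was not called. The normal diet libraries had 0.667, 0.613, 1.17 and 0.633 CPM and the high fat libraries 0.514, 1.22, 2.28 and 0.746 CPM. The ranges overlapped, with the lowest library of all 8 on the high fat diet. The log2 fold change in females was 0.63 ± 0.50 SE (adjusted p = 0.450, edgeR). The difference between the sexes in diet change, -2.30 ± 0.72 SE, was not called with edgeR (adjusted p = 0.169) and was called with DESeq2 (adjusted p = 0.0461); over the 24 alternatives the adjusted p ran from 0.0461 to 0.394. On the high fat diet Mogat1 was 3.13-fold lower in females (log2 fold change -1.65 ± 0.47 SE, adjusted p = 0.0214, edgeR), though female library 3 (2.28 CPM) stood above male library 1 (2.16 CPM). In this sex contrast 2 of 7 members were called, both lower in females, where 20.4% of tested genes were called and 11.6% were called lower. The Mogat1 call was lost without female high fat library 1 (adjusted p = 0.0641), female high fat library 4 (0.0661) or male high fat library 2 (0.0686), and without both male high fat libraries 2 and 3 (0.184), all by edgeR. It was also lost without the filter on low counts (adjusted p = 0.0563) and with those 2 male libraries averaged (0.0533).

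**Figure D2:**
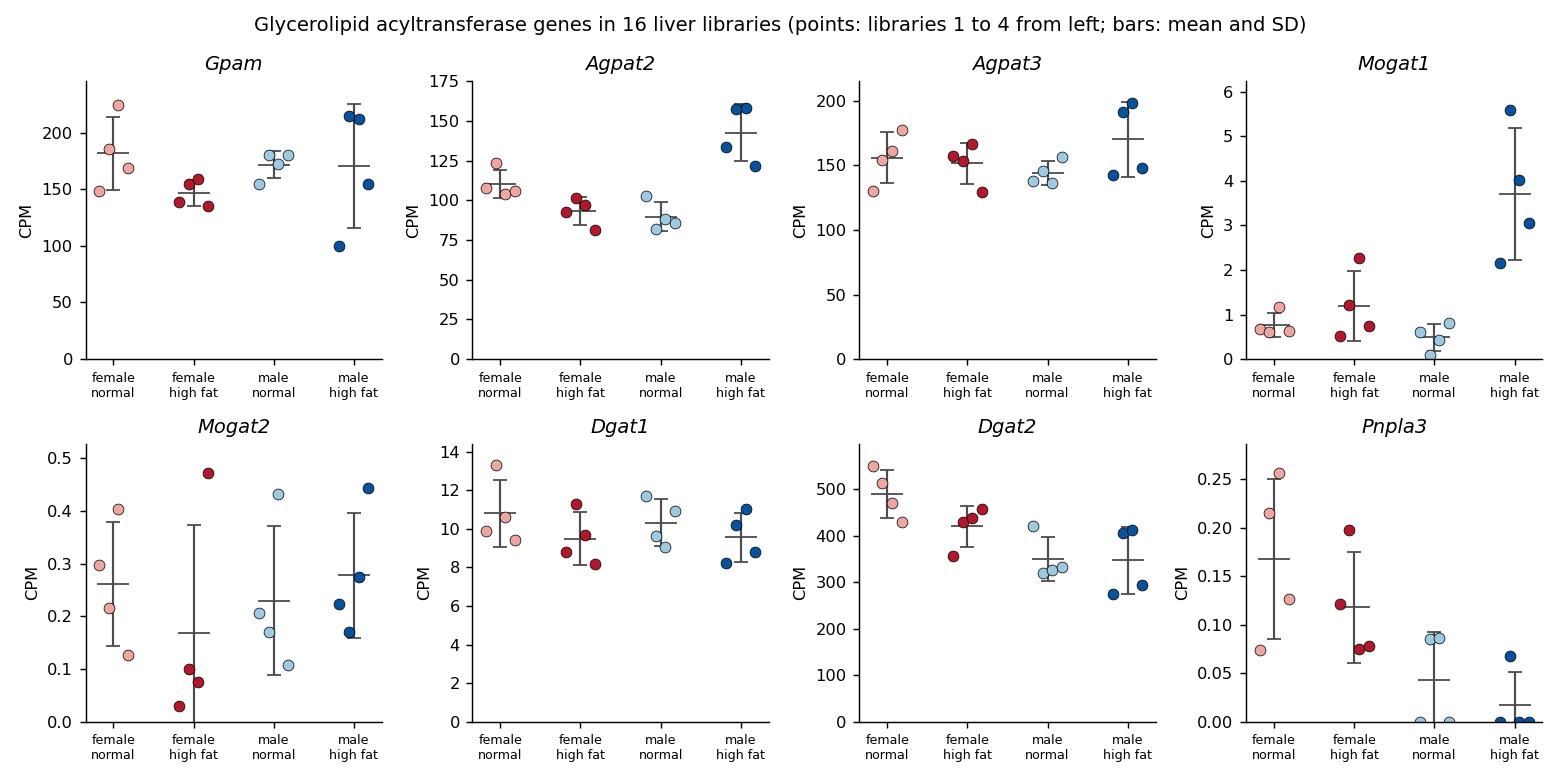
CPM of each member by group; points are libraries 1 to 4 from left to right, and bars are the mean and SD (n = 4; lower bars end at 0). Agpat2 and Mogat1 in males on the high fat diet stood above males on the normal diet without overlap, and Pnpla3 and Mogat2 were at most 0.471 CPM. Mean Dgat2 CPM was highest in females on the normal diet, whose range overlapped that of females on the high fat diet.

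Marker lists of other cells were read in the same libraries. Of 5 pancreatic acinar markers, Cela1 carried the sum, which in males was 38.4 to 58.0 TPM (high fat) and 21.1 to 48.5 TPM (normal diet), with 1 tested and 0 called. Cela1 itself was at 57.9, 36.7, 38.2 and 38.4 TPM in male high fat libraries 1 to 4. In that group 6 of the 7 tested members, among them Agpat2 and Mogat1, were higher in libraries 2 and 3 than in 1 and 4. The same held for 27.2% of all tested genes. Each of the other 4 acinar markers had its highest value in male high fat library 2 or 3. In libraries 2 and 3 Prss2 was at 7.67 and 2.74 TPM, Cpa1 at 3.19 and 1.27, Pnlip at 8.06 and 3.45, and Amy2a5 at 0.0 and 4.17. In female normal diet library 4, Prss2 was at 1.68, Pnlip at 1.5 and Cpa1 at 0.58 TPM, and in all other libraries these 4 genes were at most 0.13 TPM. A list of 6 adipocyte markers summed to 2.61 to 21.3 TPM in males on the high fat diet, against 1.63 to 2.81 TPM in males on the normal diet, 0.73 to 4.11 TPM in females on the normal diet and 0.96 to 2.68 TPM in females on the high fat diet. Of the 3 tested, 1 was called in males and it was Cfd, at 0.74, 19.0, 20.1 and 7.69 TPM in male high fat libraries 1 to 4, a call lost in 10 of 25 alternatives. The Cfd log2 fold change was 4.07 ± 1.04 SE (adjusted p = 0.0236), and 2.52 ± 1.13 SE without male high fat libraries 2 and 3 (adjusted p = 0.206), by edgeR. The adipocyte-defining Adipoq was at most 1.77, Plin1 at most 0.39 and Lep at most 0.09 TPM in any library. Macrophage markers (7 genes) summed in males to 64.1 to 117.9 TPM (high fat) and 63.2 to 83.7 TPM (normal diet), with 3 of 7 called higher. Those 3 calls were lost in 11, 2 and 0 of 25 alternatives. Clec4f carried the sum, at 35.1 to 74.5 TPM (high fat) and 42.4 to 48.4 TPM (normal diet), and was not among the 3. In females the macrophage markers summed to 135.2 to 191.0 TPM on the high fat diet and 75.2 to 98.5 TPM on the normal diet, with 4 of 7 called higher. Hepatocyte markers summed in males to 46184.8 to 59689.2 TPM (high fat) and 61172.9 to 71068.9 TPM (normal diet), with 1 of 5 called lower (Alb, the plasma protein albumin). Alb carried that sum, with male means of 32782.1 ± 7324.4 (high fat) and 44181.7 ± 3622.9 TPM (normal diet). Mean Serpina1c went the other way, at 8102.3 ± 552.9 and 7425.4 ± 578.0 TPM (SD, n = 4 each). The Alb call was lost in 7 of 25 alternatives, among them leaving out male high fat library 1 or 4 or male normal diet library 1, 2 or 3 (adjusted p up to 0.103 over the alternatives). In males, stellate cell markers summed to 16.3 to 31.7 TPM on the high fat diet and 8.7 to 15.6 TPM on the normal diet (0 of 5 called), and in females to 17.6 to 29.2 and 11.2 to 17.9 TPM (3 of 5 called higher). Cholangiocyte markers in males summed to 47.7 to 90.4 TPM (high fat) and 40.3 to 59.1 TPM (normal diet), with 1 of 5 called, lower (Krt19, adjusted p = 0.0573 without male high fat libraries 2 and 3, edgeR). Spp1 carried that sum, at 45.5 to 87.2 TPM (high fat) and 37.1 to 56.1 TPM (normal diet). Of the 5 changes in males 4 were below 0, with a median log2 fold change of -0.31. Endothelial markers in males summed to 46.5 to 56.6 TPM (high fat) and 42.7 to 47.2 TPM (normal diet), with 0 of 4 called. The part of these shifts in the Agpat2 and Mogat1 values was not tested, and in whole liver fewer cells of a type and less RNA per cell cannot be told apart. Annotated exons of Agpat2 share 64 bases with Egfl7 on the other strand (77 to 278 counts per library), and those of Mogat1 share 200 bases with BC035947 on the other strand (4 to 9 counts per library in males on the high fat diet, 0 to 4 elsewhere). Whether counting used the strand was not given in the sources used here.

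Gpam (ENSMUSG00000024978.12), the mitochondrial glycerol-3-phosphate acyltransferase that starts the route, was not called in any comparison. Female libraries stood at 148.4, 185.7, 224.5 and 168.4 CPM on the normal diet and at 138.6, 154.4, 158.9 and 135.3 CPM on the high fat diet, with overlap. The female log2 fold change was -0.31 ± 0.18 SE (adjusted p = 0.293, edgeR). Male libraries stood at 154.5, 180.2, 171.8 and 180.2 CPM on the normal diet and at 100.0, 214.7, 211.9 and 154.8 CPM on the high fat diet. The male high fat group held the lowest library of all 16, and libraries 2 and 3 lay above all male normal diet libraries. The male log2 fold change was -0.01 ± 0.18 SE (adjusted p = 0.978, edgeR). Without libraries 2 and 3 it was -0.43 ± 0.18 SE (adjusted p = 0.152, edgeR).

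Agpat3 (ENSMUSG00000001211.16), a second enzyme of the lysophosphatidate step, kept a narrower range than Agpat2. In males it stood at 138.0, 145.4, 136.5 and 156.3 CPM on the normal diet and at 142.4, 191.6, 198.8 and 148.1 CPM on the high fat diet. Only male high fat libraries 2 and 3 lay above the normal diet group. The log2 fold change was 0.24 ± 0.13 SE (adjusted p = 0.229, edgeR); it was called on log2(TPM + 1) with limma (0.34, adjusted p = 0.0402) and was 0.01 without libraries 2 and 3. Females ran from 130.1 to 177.7 CPM on the normal diet (median 157.9) and from 129.7 to 166.6 CPM on the high fat diet (median 155.3), with a log2 fold change of -0.04 ± 0.13 SE (adjusted p = 0.874, edgeR).

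The balance of the 2 lysophosphatidate enzymes was compared within each library as the ratio of TPM, in which library scaling cancels. Agpat3 to Agpat2 was 0.490, 0.644, 0.556 and 0.606 in males on the normal diet and 0.445, 0.413, 0.435 and 0.449 in males on the high fat diet. All male high fat ratios were lower, by 0.39 on the log2 scale. The exact two-sided permutation test gave p = 0.0286, the smallest that 4 against 4 libraries allow, and 0.114 after Benjamini-Hochberg adjustment over the 12 ratio tests. On the high fat diet the ratio was 0.637 ± 0.0632 in females and 0.435 ± 0.0160 in males (SD, n = 4 each; exact permutation p = 0.0286, adjusted 0.114), with all female libraries higher. In females the diets overlapped, at 0.562 ± 0.0701 on the normal diet. No ratio test passed 0.05 after adjustment. Over 12 tests a pass needs most of them at the smallest p of 0.0286, so the lack of one says little.

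**Figure D3:**
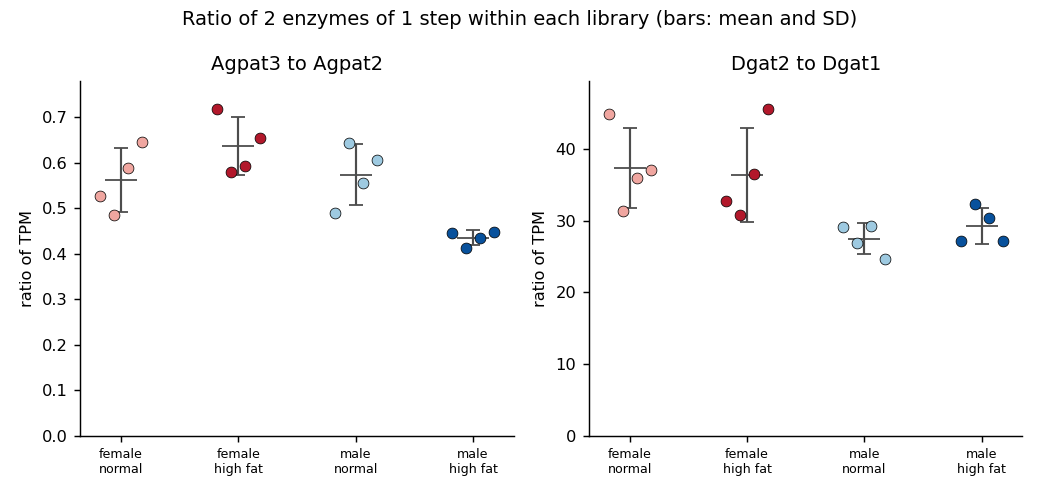
Ratio of TPM of the 2 enzymes of a step within each library, for Agpat3 to Agpat2 (left) and Dgat2 to Dgat1 (right); points are libraries and bars the mean and SD (n = 4). The Agpat3 to Agpat2 ratio of males on the high fat diet, 0.413 to 0.449, lay below all other libraries, and Dgat2 to Dgat1 on the normal diet was higher in all females than in all males.

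Dgat2 (ENSMUSG00000030747.6) and Dgat1 (ENSMUSG00000022555.13) both add the last acyl group of triacylglycerol, from unrelated protein families. On the normal diet Dgat2 stood at 549.6, 513.0, 470.3 and 430.9 CPM in females and at 421.4, 320.9, 326.3 and 332.7 CPM in males. All female libraries were higher, though the highest male library, 421.4 CPM, came close to the lowest female one. Dgat2 was 1.40-fold higher in females on this diet (log2 fold change 0.49 ± 0.15 SE, adjusted p = 0.0300, edgeR). It was the 1 member of 7 called in this contrast, where 15.7% of tested genes were called and 7.03% were called higher in females, while 22.0% had groups without overlap. The call was lost without female library 1 (adjusted p = 0.0893) or 2 (0.0774) and without male library 2 (0.0770), 3 (0.0921) or 4 (0.0745) of the normal diet groups, by edgeR.

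Diet did not move Dgat2 past the test in either sex. Female high fat libraries had 356.0, 430.4, 437.6 and 458.3 CPM (log2 fold change -0.22 ± 0.15 SE, adjusted p = 0.339, edgeR). Male high fat libraries had 276.0, 406.2, 412.9 and 294.7 CPM (log2 fold change -0.01 ± 0.15 SE, adjusted p = 0.970, edgeR). Libraries 2 and 3 again stood apart from 1 and 4. On the high fat diet the female excess was 0.28 ± 0.15 SE (adjusted p = 0.184, edgeR); it was called on log2(TPM + 1) with limma (adjusted p = 0.0174) and, with edgeR, without male high fat libraries 2 and 3 (0.56, adjusted p = 0.0155).

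Dgat1 lay between 8.16 and 13.3 CPM over all 16 libraries. Its log2 fold change with diet was -0.18 ± 0.14 SE in females (adjusted p = 0.429, edgeR) and -0.11 ± 0.14 SE in males (adjusted p = 0.655, edgeR). The TPM ratio of Dgat2 to Dgat1 was 44.9, 31.3, 36.0 and 37.1 in females on the normal diet and 29.1, 26.9, 29.2 and 24.7 in males on that diet. All females were higher, by 0.43 on the log2 scale (exact permutation p = 0.0286, adjusted 0.114). On the high fat diet the ratios of the sexes overlapped, at 36.4 ± 6.54 in females and 29.2 ± 2.54 in males (SD, n = 4 each; exact permutation p = 0.0571, adjusted 0.137).

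**Figure D4:**
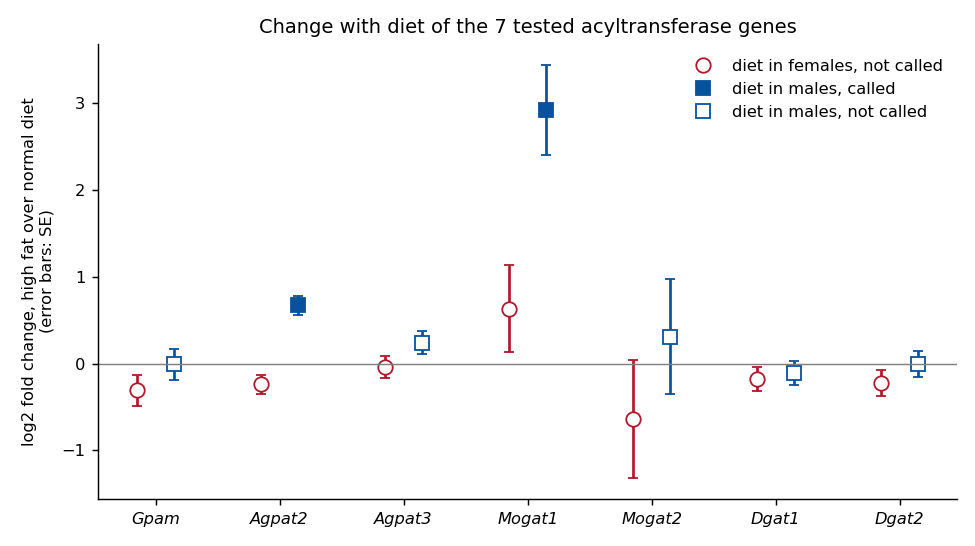
Log2 fold change with the high fat diet of the 7 tested members in females (circles) and males (squares); error bars are SE and filled symbols are called at an adjusted p under 0.05. The filled symbols are Agpat2 at 0.67 and Mogat1 at 2.92, both in males.

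Mogat2 (ENSMUSG00000052396.8), the monoacylglycerol acyltransferase best known from intestine, was near the limit of detection, with 1 to 12 counts per library. Its log2 fold changes were -0.64 ± 0.68 SE in females (adjusted p = 0.584, edgeR) and 0.31 ± 0.66 SE in males (adjusted p = 0.808, edgeR). In females on the high fat diet, library 4 had 12 counts, and libraries 1 to 3 had 1, 3 and 2. Of 6 enterocyte markers, Alpi, Sis, Cdx2 and Lct were listed at 0 in all libraries. Fabp2, a fatty acid binding protein, carried that list's sum, which in males was 88.6 to 122.1 TPM (normal diet) and 123.5 to 325.1 TPM (high fat), and in females 120.4 to 162.1 TPM (normal diet) and 224.3 to 514.4 TPM (high fat). Fabp2 was called higher in both sexes (log2 fold change 1.06 ± 0.29 SE in females, adjusted p = 0.0302, and 1.10 ± 0.29 SE in males, adjusted p = 0.0258, edgeR). These calls were lost in 8 and 9 of 25 alternatives, and without male high fat libraries 2 and 3 the male value was 0.41 (adjusted p = 0.352, edgeR). The TPM ratio of Mogat1 to Mogat2 was 5.15 ± 5.49 in males on the normal diet and 27.6 ± 20.7 on the high fat diet (SD, n = 4 each; exact permutation p = 0.0571, adjusted 0.137), with overlap.

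Pnpla3 (ENSMUSG00000041653.6) did not pass the filter on low counts. Females had 2, 7, 7 and 5 counts on the normal diet and 4, 6, 2 and 2 on the high fat diet. Males had 0, 3, 2 and 0 counts on the normal diet and 0, 2, 0 and 0 on the high fat diet. Counts were detected in all 8 female and in 3 of 8 male libraries, and a count of 0 allows up to 3 counts, or 0.0812 to 0.133 CPM in those 5 libraries. On the high fat diet the sexes did not overlap in CPM, at 0.118 ± 0.0575 in females and 0.0170 ± 0.0339 in males (SD, n = 4 each), where 22.7% of tested genes had groups without overlap. The margin is that of library size: female libraries 3 and 4 and male library 2 each had 2 counts, at 0.0748, 0.0785 and 0.0679 CPM. The limits of the 3 male libraries with 0 counts, 0.103 to 0.133 CPM, lie above the lower female values, so a difference between such libraries was not detectable at this depth. The exact two-sided permutation test gave p = 0.0286 and 0.114 after adjustment over 4 such tests. On the normal diet the sexes gave p = 0.0857 by the exact permutation test (adjusted 0.171). The diets overlapped in both sexes, with exact permutation p = 0.286 in females and 0.429 in males.

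Over the 7 tested members, the median log2 fold change with diet was -0.22 in females, where 6 of 7 values were below 0 (of these, Agpat3, Dgat1 and Dgat2 were above 0 on TPM), and 0.24 in males, where 4 were above 0; the medians of all tested genes were 0.00 and 0.01. In females 0 of 7 members were called by edgeR, where 11.5% of all tested genes were called; 1 member had an unadjusted p under 0.05 and DESeq2 called 0 as well.

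The genes around these steps were taken as 6 lists. Of all tested genes, 5.74% were called higher and 5.76% lower in females, and 6.03% higher and 5.36% lower in males. Of 15 tested other acyltransferases, 1 was called lower in females, and 1 higher and 1 lower in males. Gpat3, another glycerol-3-phosphate acyltransferase, went in males from 16.5 ± 4.35 to 27.4 ± 4.76 CPM with the high fat diet (log2 fold change 0.72 ± 0.17 SE, adjusted p = 0.00945, edgeR). In females Gpat3 went from 35.3 ± 5.32 to 26.4 ± 1.72 CPM (-0.42 ± 0.16 SE, adjusted p = 0.103, edgeR). The difference of these changes was -1.14 ± 0.23 SE (adjusted p = 0.0274, edgeR interaction term), a call lost on TPM and without female high fat library 1 or 4, female normal diet library 2 or 4, or male normal diet library 3 (adjusted p up to 0.107). Gpat4, which acts at the same step, fell in females (-0.58 ± 0.13 SE, adjusted p = 0.00800) and in males (-0.45 ± 0.13 SE, adjusted p = 0.0306), by edgeR. Both Gpat4 calls were lost on TPM, and the male one also without male high fat library 1 or 4 or male normal diet library 2, 3 or 4 (adjusted p up to 0.0933, edgeR). Agpat1, a further lysophosphatidate acyltransferase, was not called (0.21 ± 0.17 SE in females and -0.15 ± 0.17 SE in males). In females 1 of 25 alternatives called it.

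Phosphatidate phosphatases act between the second and the last acylation. Lpin1 went from 305.5 ± 95.7 to 31.7 ± 5.89 CPM in females and from 320.1 ± 77.7 to 93.4 ± 33.7 CPM in males (SD, n = 4 each). It fell by 3.27 ± 0.29 SE on the log2 scale in females (adjusted p = 1.2e-05) and by 1.78 ± 0.27 SE in males (adjusted p = 0.000752), by edgeR. Lpin2 fell by 1.34 ± 0.18 SE in females (adjusted p = 0.000174, edgeR). Of the 16 genes of substrate supply and phosphatidate hydrolysis, 4 were called lower and 0 higher in females, and 1 was called lower and 1 higher in males. The male rise was Plpp3, another lipid phosphatase (0.64 ± 0.15 SE, adjusted p = 0.00960, edgeR; 0.146 without male high fat libraries 2 and 3). Acsl4, an acyl-CoA synthetase, fell by 0.95 ± 0.15 SE in females (adjusted p = 0.000762, edgeR).

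Of 16 genes of triglyceride and diacylglycerol hydrolysis, 2 were called lower in females, and 2 were lower and 2 higher in males. Pnpla2, the adipose triglyceride lipase, fell by 0.58 ± 0.13 SE in females (adjusted p = 0.00713; 0.0846 on log2(TPM + 1) with limma) and by 0.74 ± 0.13 SE in males (adjusted p = 0.00116, edgeR). G0s2, which inhibits that lipase, rose in males by 1.72 ± 0.37 SE (adjusted p = 0.00932, edgeR; 0.0773 without male high fat libraries 2 and 3). Abhd6, a monoacylglycerol lipase, fell by 1.21 ± 0.20 SE in females (adjusted p = 0.00139, edgeR). Of 15 genes of the phospholipid branch, 1 was lower in females and 2 in males, among them Etnk2, an ethanolamine kinase (-0.90 ± 0.18 SE in males, adjusted p = 0.00351, edgeR).

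Of 16 genes of fatty acid synthesis and its regulators, 4 were called lower in females, and 2 were lower and 1 higher in males. Insig1, which holds back sterol-regulated transcription factors, fell by 0.58 ± 0.10 SE in females (adjusted p = 0.00119) and by 1.65 ± 0.10 SE in males (adjusted p = 1.71e-08), by edgeR. Insig2 was the 1 called higher in males, from 115.4 ± 23.3 to 293.6 ± 93.4 CPM (SD, n = 4 each). Its male rise was called in all 25 alternatives, at 0.92 to 1.52 on the log2 scale. In females Insig2 stood at 146.8 ± 32.0 CPM on the normal diet and 119.8 ± 26.5 CPM on the high fat diet. The regulators Srebf1 (0.46 ± 0.31 SE in females and 0.56 ± 0.31 SE in males) and Mlxipl (0.39 ± 0.18 SE and -0.02 ± 0.18 SE) were not called in either sex. Mlxipl in females was called in 2 of 25 alternatives. Of 13 PPAR gamma and lipid droplet genes, 3 were called lower in females and 6 higher in males. The male rises included Cd36, a fatty acid uptake receptor (1.66 ± 0.24 SE, adjusted p = 0.000326), and the droplet proteins Cidec (2.05 ± 0.42 SE, adjusted p = 0.00590) and Cidea (3.56 ± 0.80 SE, adjusted p = 0.00936), by edgeR. Without male high fat libraries 2 and 3 the log2 fold change of Cd36 was 1.00 (adjusted p = 0.00142), that of Cidec 1.14 (adjusted p = 0.0784) and that of Cidea 3.03 (adjusted p = 0.0672), by edgeR. Pparg itself, the nuclear receptor, rose in males by 0.93 ± 0.27 SE (adjusted p = 0.0353, edgeR); 11 of 25 alternatives lost this call, among them leaving out any 1 of male high fat libraries 2, 3 or 4 or of the 4 male normal diet libraries (adjusted p up to 0.1), and without both male high fat libraries 2 and 3 it was 0.58 (adjusted p = 0.296).

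**Figure D5:**
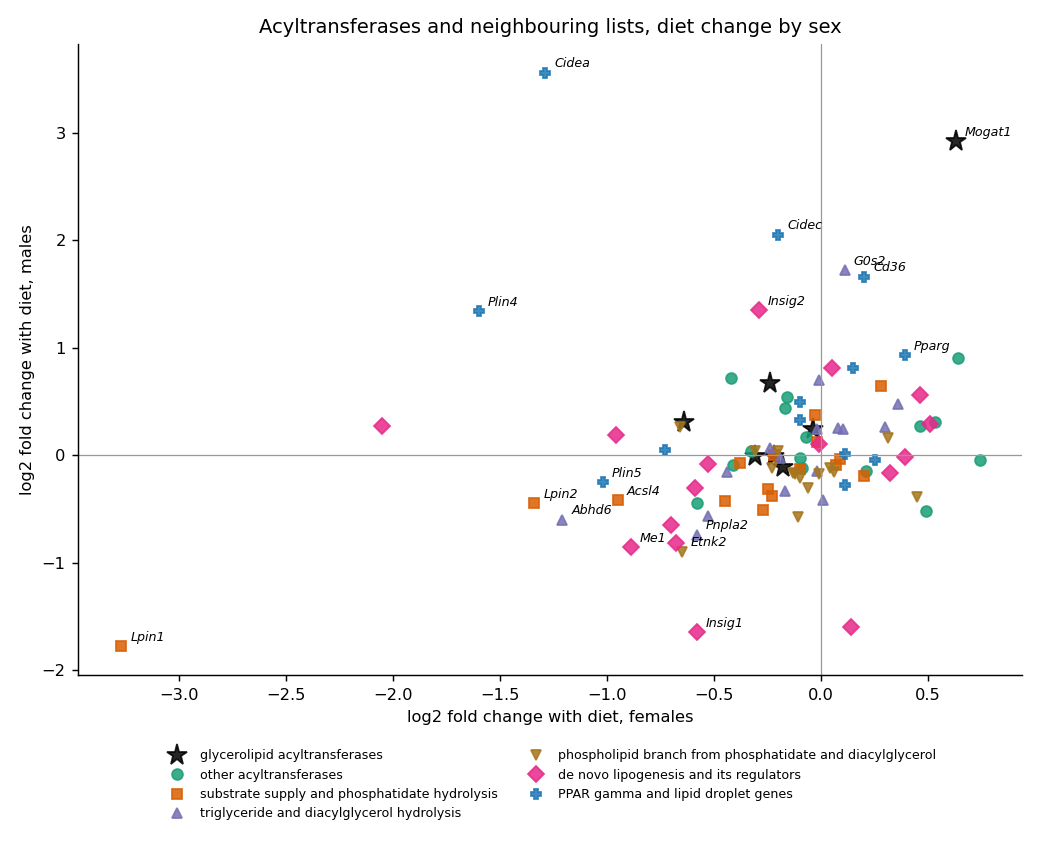
Log2 fold change with the high fat diet in females (horizontal) and males (vertical) for the tested members (stars) and the 6 neighbouring lists; each point is 1 gene. Mogat1 stands at 0.63 and 2.92, Lpin1 at -3.27 and -1.78, and most members lie close to 0 on both axes.

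The genes whose log2 CPM ran most like a member's over the 16 libraries were listed as a description; the libraries share groups and scaling, so no p is given. Agpat2 was most like Trim7 (Pearson r = 0.93) and Fpgs (0.92), and Mogat1 was most like Adra1a (0.94) and Trmt9b (0.91). Mean Trim7 was highest in the males on the high fat diet, at 9.69 CPM, against 4.36 CPM for males on the normal diet. Dgat2 was most like Pex7 (0.97) and Sirt3 (0.96), the closest likeness found for any member, and Gpam was most like Tmem135 (0.92) and Pgm1 (0.86). For Agpat3 they were Etfdh (0.84) and Paqr7 (0.82), for Mogat2 Slc9a3r1 and Slc46a3 (0.80 each), and for Dgat1 Tspan12 and Mxi1 (0.77 each).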

How the data were processed

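The authors deposited 2 tables of 78317 genes in 16 libraries, expected counts and TPM, made with STAR and RSEM on GRCm39 per the submitters' processing notes, with no versions or roles given. RSEM divides reads that map to several genes, so deposited expected counts need not be whole (4.89% of entries were not); near-identical genes can share reads. In the authors' TPM each gene is divided by its length and each library sums to 1 total. Symbols were matched for 51487 genes with 98.97% of counts. Expected counts were rounded, genes filtered by filterByExpr (14781 kept, 99.94% of counts), libraries scaled by TMM, and 1 mean per group fitted to all 16 libraries with the robust quasi-likelihood test of edgeR 4.0.16 (R 4.3.3); genes were called at a Benjamini-Hochberg adjusted p under 0.05 over all tested genes, two-sided. SE was taken as the size of the estimate over the root of its F statistic. Ratios of TPM and Pnpla3 CPM were tested by exact permutation over 35 splits of 8 libraries (scipy 1.17.1). The script was tested on simulated counts. Total counts of 22228115 to 41420589 per library limit the precision for Mogat1, Mogat2 and Pnpla3, and counts without molecular identifiers cover counting error only.

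Alternatives were RLE size factors, DESeq2 1.42.0, no filter, only the groups compared, a replicate block, limma 3.58.1 on log2(TPM + 1) or log2(TPM + 0.1), male high fat replicates 2 and 3 averaged, and each library left out. Leaving out both of those replicates, and the tests of Pnpla3 CPM, were added after the data were seen. Deviations of samples with the same replicate number correlated about as weakly as those of other samples (median 0.04 against -0.02). The samples were treated as unpaired, though these correlations cannot exclude a pairing. The rule for named genes took all 8 members; up to 3 called genes with the smallest p per list and diet comparison, of which the report gives a selection; Gpat3, Gpat4, Agpat1, Srebf1, Mlxipl, Pparg and Lpin1 in any case; and for each tested member the 2 genes of highest r among those averaging 1 or more in log2 CPM. The members and lists were chosen with earlier results of these data known. Overlaps between genes came from GENCODE M21, an older annotation than the deposited identifiers.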

Additional observations from a re-analysis of the deposited data

Results flagged for a closer look

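In 4 of the 32 sets of 1 gene in 1 group, a single library lay far from the other 3, judged by its gap to the nearest library divided by the whole range against Dixon's critical value. Chance gives such a set about 1 time in 20, a rate that does not hold for sets of a few counts, as in Mogat2 and Pnpla3. Mogat1 in females on the normal diet had a gap of 0.903 of the range, with library 3 (1.17 CPM) above the others. Mogat2 in females on the high fat diet had a gap of 0.843, with library 4 (0.471 CPM) high. Dgat2 in males on the normal diet had a gap of 0.882, with library 1 (421.4 CPM) high. Pnpla3 in males on the high fat diet had a gap of 1.0, a value fixed in advance since library 2 was the only one with counts.

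The diet change of Agpat2 differed between the sexes by the edgeR interaction term, at -0.91 ± 0.16 SE on the log2 scale (females minus males, adjusted p = 0.00818): CPM was higher in all 4 male high fat libraries than in any male normal diet library and lower in all 4 female high fat libraries than in any female normal diet library. Diet groups without overlap were seen for 18.5% of tested genes in males and 18.3% in females. The fall in females was not called (adjusted p = 0.163, edgeR). On TPM the female means were 103.7 ± 6.08 on the normal diet and 103.5 ± 8.11 on the high fat diet.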

How the results depend on the processing

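The rises of Agpat2 and Mogat1 in males kept their direction and call in all 25 alternatives, with adjusted p of at most 0.0193 and 0.0196, and ran from 0.51 to 0.74 and from 1.87 to 3.35 on the log2 scale; the Agpat2 interaction did so in all 24. Calls were lost or gained elsewhere. DESeq2 called 2 members in the interaction, where it called 341 of 14781 tested genes, against 100 in the report. For sex on the normal diet, 2 members were called by DESeq2, by edgeR on only the 2 groups, and by limma on log2(TPM + 1) or log2(TPM + 0.1), and leaving out 1 library gave 0.0 to 2.0. For sex on the high fat diet, 1 member was called without the low-count filter and with male high fat replicates 2 and 3 averaged, 3 were called (1 higher in females) by limma on either TPM scale, without both of those replicates 2 were called (Dgat2 higher and Agpat2 lower, against Agpat2 and Mogat1, both lower, in the report), and leaving out 1 library gave 1.0 to 2.0. Over all tested genes and alternatives, called genes numbered 947 to 2926 for diet in females (1700 in the report), 1113 to 2250 for diet in males (1684), 51 to 341 for the interaction (100), 1325 to 2895 for sex on the normal diet (2322) and 1958 to 3710 for sex on the high fat diet (3022). For sex on the normal diet, genes called numbered 2895 by DESeq2, 2712 on only the 2 groups, and 1750 and 1852 by limma on the 2 TPM scales. For sex on the high fat diet limma called 3710 and 3545. The cause of these shifts was not tested.

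The deviations of same-numbered libraries correlated at -0.16 to 0.18, against -0.27 to 0.19 for libraries with different numbers. Correlations this weak cannot exclude a pairing. With the replicate block 1980 genes were called in males instead of 1684, and 2 members in both fits, and no call of a member changed; the calls of Pparg (adjusted p = 0.0617, edgeR) and of Cfd in males (0.051) were lost, and Mlxipl in males was 0.02. For ratios, exact sign flips within 4 pairs cannot give a permutation p below 0.125.

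Sign changes touched only values that were not called. On log2(TPM + 1) and log2(TPM + 0.1), the female diet changes were 0.18 and 0.18 for Agpat3, 0.05 and 0.06 for Dgat1, and 0.02 and 0.02 for Dgat2. The male ones were 0.01 and 0.01 for Gpam, 0.05 and 0.05 for Dgat2, and 0.11 and 0.12 for Mlxipl. The interaction of Dgat1 was 0.09 and 0.1. The sex difference on the high fat diet was 0.01 and 0.01 for Gpam, 0.1 and 0.1 for Agpat3, and 0.14 and 0.16 for Dgat1. TPM moved the median of all genes by 0.15 and 0.22 in females and by 0.11 and 0.15 in the interaction. Called genes in females were 2644 higher and 282 lower on log2(TPM + 1), against 848 and 852 on counts. In males they were 899 and 443 against 891 and 793, and for sex on the high fat diet 2957 and 753 against 1306 and 1716. Without both male high fat libraries 2 and 3, the interaction was 0.12 for Gpam, 0.1 for Dgat1 and 0.07 for Dgat2, the sex difference on the high fat diet was 0.2 for Gpam, 0.06 for Agpat3 and 0.16 for Dgat1, and Mlxipl in males was 0.03. The last Dgat1 difference, -0.01 in the report, was 0.01 with RLE factors, DESeq2 or no filter, 0.02 on 2 groups and 0.06 with the 2 libraries averaged.

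Leaving out 1 library at a time, values that crossed 0 ran over these ranges. With diet in females, Agpat3 ran from -0.1 to 0.05. With diet in males, Gpam ran from -0.14 to 0.17, Dgat2 from -0.11 to 0.08 and Mlxipl from -0.2 to 0.21. The Dgat1 interaction ran from -0.17 to 0.06. For sex on the normal diet, Gpam ran from -0.03 to 0.17, Mogat2 from -0.07 to 0.67 and Dgat1 from -0.05 to 0.13. For sex on the high fat diet, Dgat1 ran from -0.1 to 0.08. Log2 ratios ran from -0.15 to 0.05 for Dgat2 to Dgat1 with diet in females, from -0.1 to 0.04 for Agpat3 to Agpat2 by sex on the normal diet, and from -1.04 to 0.42 for Mogat1 to Mogat2 by sex on the high fat diet. Counts of 32 or fewer per library limit what can be seen of Mogat1 outside the high fat groups, and of Mogat2 and Pnpla3 throughout. The same holds for Mogat1 in female high fat libraries 1 and 4, with 17 and 19 counts.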
